A study of Mus musculus with 8 samples.

Results

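The genes described here encode the semaphorins, ephrins, Slits and netrins and their receptors, the cues that steer growing axons and migrating cells. They were taken by symbol from the table of 24346 genes, as every symbol that starts with Sema, Plxn, Epha, Ephb, Efna, Efnb or Unc5, every Slit, Robo or Ntn gene with a number, and Nrp1, Nrp2 and Dcc. The rule found 72 genes, of which 69 are guidance genes. The other 3, Unc50, Unc5cl and Plxna4os1, share only the letters of a symbol with the families.

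RNA was sequenced in 8 libraries of iOLs, the immature oligodendrocytes that oligodendrocyte precursor cells (OPCs) become early in differentiation. The 4 libraries labelled WT (Med23+/+) and the 4 labelled KO (Med23-/-) were all made from primary OPCs of P7 mouse brain, purified by immunopanning and grown in 10% CO2 with the mitogens NT-3 at 1 ng/mL and PDGF-AA at 10 ng/mL. The cells of all 8 libraries were then held for 1 day in 15 nM T3 (thyroid hormone) with 10 ng/mL CNTF, so no untreated culture stands beside them. Med23 is a subunit of Mediator, the complex that links transcription factors to RNA polymerase II. The knockout combined Med23 fl/fl alleles with Olig1-cre, in which the promoter of Olig1, a transcription factor of the oligodendrocyte lineage, drives Cre. In the study Med23+/+ names the cells of control mice, described for this line as Med23 fl/fl littermates, while the labels say only WT. The labels do not say whether the replicates came from separate animals or separate cultures. The p-values thus measure the spread between these libraries, which may be partly technical.

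Semaphorins bind plexins, and the secreted class 3 semaphorins do so together with neuropilins as co-receptors. Ephrins bind Eph receptor tyrosine kinases on neighbouring cells, Slits bind Robo receptors, and netrins bind Dcc and the Unc5 receptors. In the oligodendrocyte lineage these cues are known to attract or repel migrating OPCs and to shape the processes that reach for axons.

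Med23 itself was lower in the knockout, at 12.5 ± 0.23 FPKM (SD, n = 4) in Med23+/+ and 8.26 ± 0.25 FPKM (n = 4) in Med23-/- iOLs (log2 fold change -0.55 ± 0.07 SE, adjusted p = 0.000353). FPKM, the unit of the deposited table, scales fragments by transcript length and by the mapped fragments of the library and is a level per length. The Med23 value covers the whole gene, not the deleted part, and the 4 libraries of each genotype lay apart. Of 11 oligodendrocyte lineage markers, 7 were lower and 2, Pdgfra and Cspg4, were higher in the knockout, and their summed level ran from 2607 to 2894 FPKM in Med23+/+ and from 1927 to 2494 in Med23-/- libraries. Of 10 neuron markers, 7 were higher by adjusted p and the others did not pass, and their summed level was 131.5, 91.5, 100.8 and 104.6 FPKM in Med23+/+ replicates 1 to 4 and 189, 144, 256 and 223 in Med23-/- replicates 1 to 4. Of 9 astrocyte markers, 4 were lower and 1 was higher, with sums of 242 to 299 against 117 to 171 FPKM. S100b, which oligodendrocyte lineage cells also express, fell from 124.6 to 17.5 FPKM on average, and without it the sums overlapped, at 128 to 183 and 94.2 to 147 FPKM. All 8 microglial and all 6 endothelial markers had means under 1 FPKM. Of 8 fibroblast and pericyte markers, 3 were tested and did not pass, with sums of 1.44 to 12.9 in Med23+/+ and 3.89 to 20.6 in Med23-/- libraries. In a bulk library fewer cells of a type cannot be told apart from less RNA per cell, and the part of these markers in the results on guidance genes was not tested.

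Of the 72 genes, 54 averaged 1 FPKM or more across libraries and were tested, with p-values adjusted over all 12328 genes tested. At an adjusted p under 0.05, 7 were lower and 20 were higher in Med23-/- iOLs, or 13% and 37% of the 54. Over all genes tested, 14.1% were lower and 15.9% were higher by the same limit. The share lower was thus near that of all genes, and the share higher was above it. The median log2 fold change was 0.32 over the 54 and -0.01 over all genes tested. Counting genes whose libraries did not overlap between genotypes, 7 of the 54 lay lower in every Med23-/- library, against 15.3% of all genes tested, and 19 (35.2%) lay higher, against 16.3%. With a fold change above 2 on the log2(FPKM + 1) scale added, 2 genes were lower and 2 were higher (3.7% each), against 1.75% and 2.98% of all genes. That scale understates the change of genes with few FPKM. With 0.1 in place of 1 added to each value, 8 genes passed both limits upwards, against 5.3% of all genes tested in that fit. They were Plxnc1, Plxna2, Slit1, Sema4f, Ntn4, Nrp2, Efnb3 and Efnb2. Downwards 3 passed, namely Plxnb3, Sema3d and Sema4a, and the share of all genes was not computed for that side. The count passing both limits upwards was also 5 without Med23+/+ replicate 1, against 3.49% of all genes, and 4 without Med23-/- replicate 3, against 3.11%.

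The log2 fold changes by family show where the movement lay. Of 9 plexins, 2 fell and 4 rose, both neuropilins rose, and of 16 semaphorins tested 4 fell and 5 rose. Of 9 Eph receptors tested 1 fell and 2 rose, and of 6 ephrins tested 2 rose. Of 4 Slit and Robo genes tested 2 rose, and of 7 netrins and netrin receptors tested 3 rose. By role, 4 of 27 ligands fell and 10 rose (median log2 fold change 0.12), and 3 of 26 receptors fell and 10 rose (median 0.39).

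**Figure D1:**
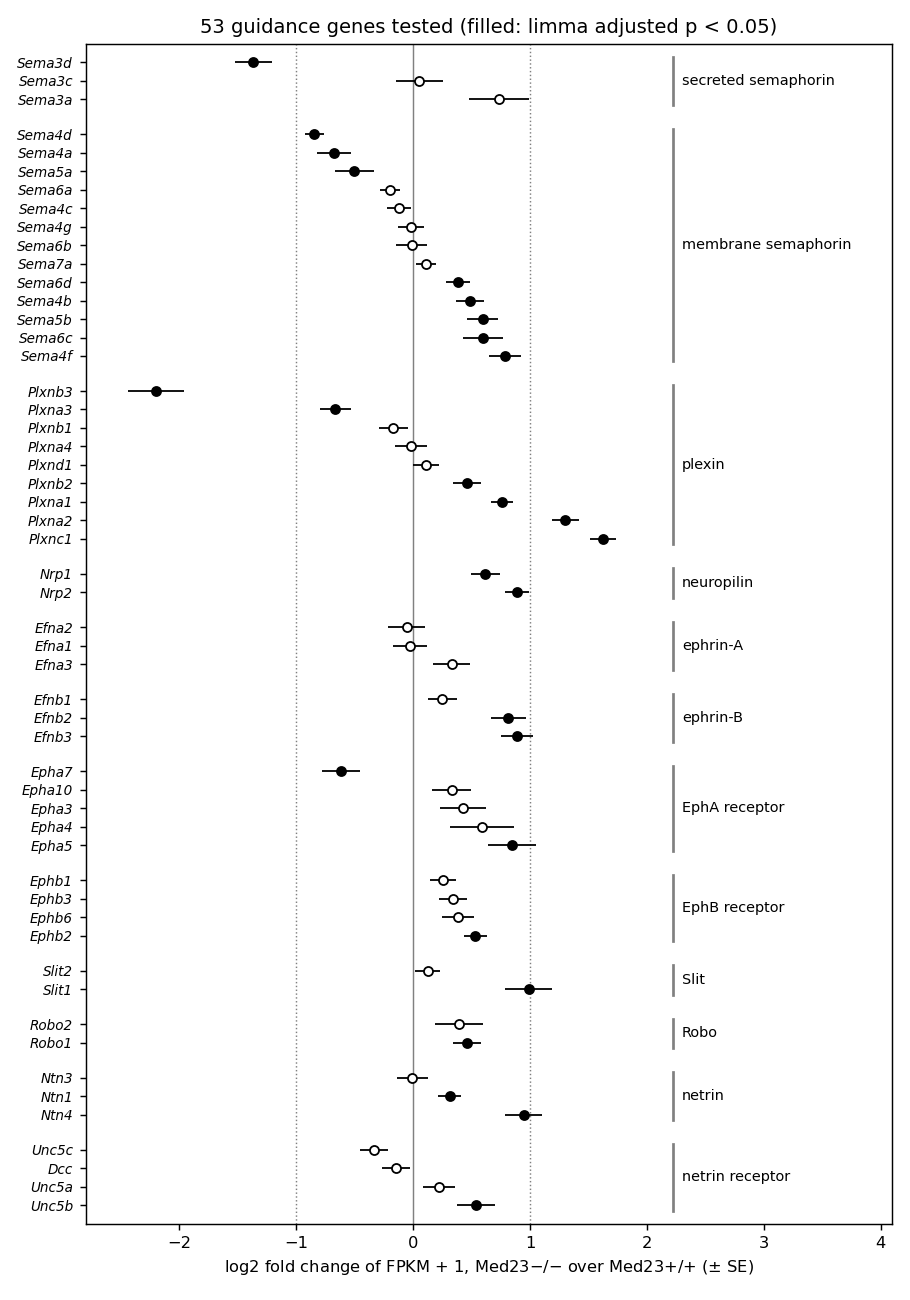
Log2 fold change of FPKM + 1 (x axis, Med23-/- over Med23+/+, bars ± SE) for the 53 guidance genes tested, grouped by family on the y axis, with filled points for limma adjusted p under 0.05 and dotted lines at a 2-fold change. Plxnb3 at -2.20 and Sema3d at -1.37 lie farthest to the left, and Plxnc1 at 1.63 and Plxna2 at 1.30 farthest to the right.

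The 4 genes past both limits are 3 plexins and a secreted semaphorin. Their promoters are shown because the study concerns Sp1, a factor that binds GC boxes. Each is the 300 bases from 250 before to 50 after the start in the RefSeq table for GRCm38.p6, written 5′ to 3′ on the gene's strand, with GGGCGG, or its complement CCGCCC, in capitals.
Plxnb3: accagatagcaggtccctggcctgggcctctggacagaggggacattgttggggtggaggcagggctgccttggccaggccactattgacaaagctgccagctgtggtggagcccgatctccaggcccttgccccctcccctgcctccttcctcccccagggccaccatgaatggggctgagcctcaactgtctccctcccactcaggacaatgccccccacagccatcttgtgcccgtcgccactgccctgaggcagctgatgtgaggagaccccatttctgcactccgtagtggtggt
Sema3d: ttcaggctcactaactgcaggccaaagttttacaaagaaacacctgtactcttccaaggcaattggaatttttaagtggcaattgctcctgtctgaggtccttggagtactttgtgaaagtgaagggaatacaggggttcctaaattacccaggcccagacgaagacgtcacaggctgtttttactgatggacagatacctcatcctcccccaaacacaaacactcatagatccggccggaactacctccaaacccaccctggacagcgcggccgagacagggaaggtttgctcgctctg
Plxna2: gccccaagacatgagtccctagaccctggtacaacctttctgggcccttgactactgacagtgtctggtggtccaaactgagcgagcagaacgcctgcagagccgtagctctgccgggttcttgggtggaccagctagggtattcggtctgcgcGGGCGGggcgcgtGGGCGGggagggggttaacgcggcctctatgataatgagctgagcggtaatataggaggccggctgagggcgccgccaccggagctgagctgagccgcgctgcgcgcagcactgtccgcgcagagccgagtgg
Plxnc1: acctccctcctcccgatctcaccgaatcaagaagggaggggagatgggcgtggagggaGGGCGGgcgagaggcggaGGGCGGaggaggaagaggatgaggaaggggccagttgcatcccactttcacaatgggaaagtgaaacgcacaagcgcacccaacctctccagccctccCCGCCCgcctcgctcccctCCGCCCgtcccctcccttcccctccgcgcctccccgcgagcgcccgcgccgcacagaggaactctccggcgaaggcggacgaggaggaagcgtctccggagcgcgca
The Plxnb3 window lies at chrX:73756853-73757152 (+), the Sema3d window at chr5:12382916-12383215 (+), the Plxna2 window at chr1:194619579-194619878 (+) and the Plxnc1 window at chr10:94944796-94945095 (-). The motif was searched on both strands. It occurred 0 times in the windows of Plxnb3 and Sema3d, the genes that fell, 2 times in that of Plxna2 and 4 times in that of Plxnc1, the genes that rose. The base composition differed as well, with a GC content of 63.7% for Plxnb3, 49.7% for Sema3d, 64.7% for Plxna2 and 69% for Plxnc1. These 4 windows do not stand for the families. The table held 77 promoters of 61 of the 72 genes, and 71.4% of them had at least 1 GC box, against 35.7% of all 32851 promoters and 63.6% of those of genes tested. Among the guidance genes the share was 61.5% of 13 promoters of genes that fell, 70% of 20 promoters of genes that rose and 73.3% of 30 promoters of tested genes that did not pass. Counted by gene, those shares were 71.4% of 7, 75% of 16 and 75% of 24. Over all genes tested, 65.3% of the promoters of genes that fell and 62.3% of those of genes that rose had a GC box.

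Plxnb3, a plexin known for its expression in the oligodendrocyte lineage and a receptor of Sema5a, had the highest mean level of all 72 genes, 53.8 FPKM. Its level was 74.9, 68.3, 116 and 95.4 FPKM in Med23+/+ replicates 1 to 4 and 19.0, 24.02, 21.7 and 10.9 FPKM in Med23-/- replicates 1 to 4. Every knockout library lay below every control library, and the highest knockout value was far under the lowest control value. The mean in the knockout was 0.213 times that in Med23+/+ iOLs (log2 fold change -2.20 ± 0.24 SE, adjusted p = 0.000196).

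Sema3d, a secreted class 3 semaphorin, fell as well. It was at 33.5, 38.6, 46.8 and 38.1 FPKM in the Med23+/+ and at 12.1, 15.4, 19.6 and 12.01 FPKM in the Med23-/- libraries, again without overlap. Its knockout mean was 0.377 times the control mean (log2 fold change -1.37 ± 0.16 SE, adjusted p = 0.000257).

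Plxnc1, the receptor of Sema7a, had the highest log2 fold change of the 54 genes tested. Its level was 5.05, 4.43, 3.46 and 5.23 FPKM in the Med23+/+ and 16.4, 14.8, 15.9 and 16.96 FPKM in the Med23-/- libraries. The knockout libraries lay close together and all above the controls, with a mean 3.52 times as high (log2 fold change 1.63 ± 0.11 SE, adjusted p = 2.26e-05). Plxna2, a receptor of Sema6a and, with neuropilins, of class 3 semaphorins, was at 5.41, 4.75, 3.86 and 4.85 FPKM in the Med23+/+ and at 12.7, 13.0, 11.3 and 15.5 FPKM in the Med23-/- libraries. The genotypes did not overlap, and the knockout mean was 2.78 times as high (log2 fold change 1.30 ± 0.12 SE, adjusted p = 7.45e-05). For each of these 4 genes the two-sided exact permutation test of 4 against 4 libraries gave p = 0.0286, the smallest value it can give. Any gene without overlap between genotypes gets this value, so it adds nothing to the lack of overlap. All 4 kept both their direction and an adjusted p under 0.05 in each of the 17 alternative settings.

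**Figure D2:**
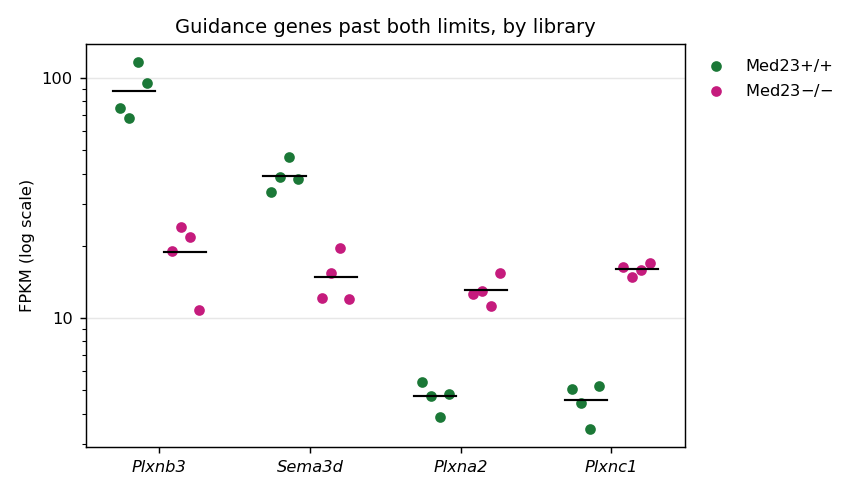
FPKM (y axis, log scale) of Plxnb3, Sema3d, Plxna2 and Plxnc1 in each library, with green points for the 4 Med23+/+ and pink points for the 4 Med23-/- libraries and a black line at each mean. For all 4 genes the genotypes are apart, lower in the knockout for Plxnb3 and Sema3d and higher for Plxna2 and Plxnc1.

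The remaining plexins moved in both directions. Plxna3, which serves with neuropilins as a receptor of class 3 semaphorins, fell from 13.9 ± 1.3 to 8.48 ± 1.7 FPKM (SD, n = 4 in both genotypes; log2 fold change -0.66, adjusted p = 0.00538). Plxna1, a receptor of Sema6d and of class 3 semaphorins, was at 16.6, 14.3, 14.9 and 16.5 FPKM in the controls and at 28.7, 24.6, 24.5 and 30.6 FPKM in the knockout, without overlap. Its log2 fold change was 0.76 ± 0.09 SE (adjusted p = 0.000401), and 10.7% of its exonic bases are shared with an antisense gene, Gm26811, whose reads cannot be told apart here because counting by strand is not stated. Plxnb2, a receptor of class 4 semaphorins, rose from 22.0 ± 2.3 to 30.8 ± 4.7 FPKM (log2 fold change 0.46, adjusted p = 0.0153). Plxnb1, Plxna4 and Plxnd1 did not pass, with log2 fold changes of -0.17, -0.02 and 0.11.

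The mix of plexin transcripts differed between genotypes. The 9 plexins summed to 142 to 196 FPKM in Med23+/+ and to 124 to 142 FPKM in Med23-/- libraries. Plxnb3 made up 47.1% to 59.2% of that sum in the controls and 8.20% to 18.0% in the knockout. Plxna2 and Plxnc1 together with Plxna1 and Plxnb2 took larger shares in every knockout library than in any control library. Plxnc1 held 1.76% to 3.17% in the controls and 11.0% to 12.8% in the knockout, and Plxnb2 held 11.3% to 13.9% and 20.8% to 26.7%. The level of Plxnb3 was 14.8 to 33.6 times that of Plxnc1 in Med23+/+ and 0.640 to 1.63 times in Med23-/- libraries. Within the A class, the level of Plxna2 was 0.252 to 0.391 times that of Plxna3 in the controls and 1.28 to 2.43 times in the knockout, so their order turned in every library. These shares and ratios are built from the values tested above and are given as a description.

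**Figure D3:**
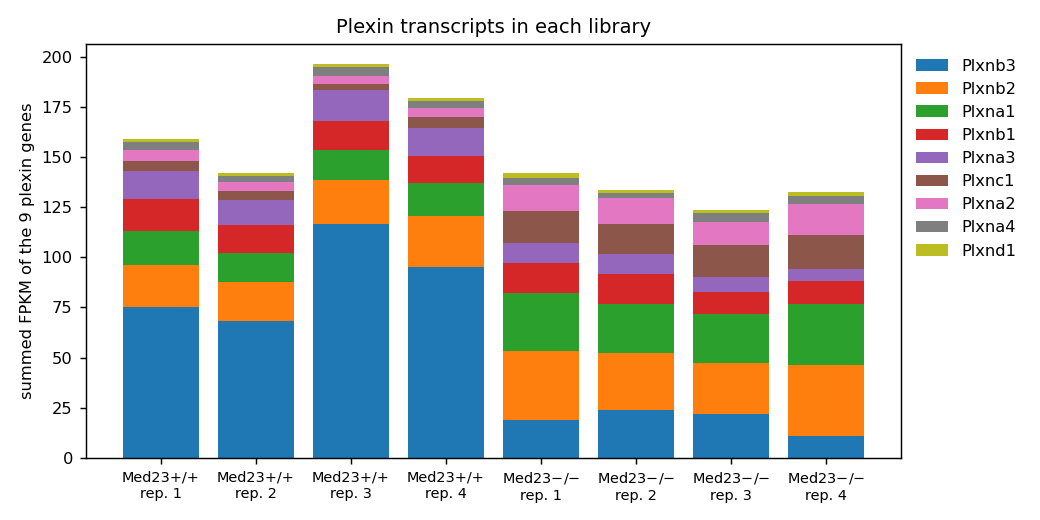
Summed FPKM of the 9 plexin genes (y axis, linear) in each of the 8 libraries (x axis), stacked by gene. Plxnb3, at the base of each bar, makes up 47.1% to 59.2% of the Med23+/+ bars and 8.20% to 18.0% of the Med23-/- bars.

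Both neuropilins, the co-receptors that plexins need for most class 3 semaphorins and that also bind VEGF, rose. Nrp2 was at 4.20, 4.36, 3.41 and 4.64 FPKM in the controls and at 9.06, 8.52, 7.54 and 9.01 FPKM in the knockout, 2.05 times as high on average (log2 fold change 0.89 ± 0.10 SE, adjusted p = 0.000258). Nrp1 was at 1.74, 1.32, 1.46 and 1.07 FPKM in the controls and at 2.32, 2.64, 2.75 and 2.97 FPKM in the knockout (log2 fold change 0.62 ± 0.12 SE, adjusted p = 0.00473). Neither gene overlapped between genotypes. Nrp2 stayed the more abundant, at 2.33 to 4.34 times Nrp1 in Med23+/+ and 2.75 to 3.91 times in Med23-/- libraries.

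Among the ligands, the semaphorins had summed levels of 259 to 268 FPKM in Med23+/+ and 217 to 271 FPKM in Med23-/- libraries, which overlapped. Sema5a, a transmembrane semaphorin with thrombospondin repeats and a ligand of Plxnb3, had the highest semaphorin level in each control library, at 58.6, 66.0, 58.1 and 55.6 FPKM, and was at 44.5, 55.2, 42.4 and 28.8 FPKM in the knockout. The highest knockout library came close to the lowest control (log2 fold change -0.50 ± 0.17 SE, adjusted p = 0.0443). This call was weak, since the adjusted p lay between 0.0695 and 0.105 without Med23+/+ replicate 1, 2, 3 or 4 or Med23-/- replicate 1 or 3.

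Sema5b, its closest relative, went the other way. It was at 30.8, 27.8, 22.7 and 28.1 FPKM in the controls and at 48.4, 47.5, 36.4 and 35.6 FPKM in the knockout, without overlap (log2 fold change 0.59 ± 0.13 SE, adjusted p = 0.00746). The level of Sema5a was 1.91 to 2.55 times that of Sema5b in Med23+/+ and 0.811 to 1.16 times in Med23-/- libraries.

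Of the class 4 semaphorins, which are membrane-bound ligands of B-class plexins and other receptors, 2 fell and 2 rose. Sema4d, the ligand of Plxnb1 and a known product of oligodendrocytes that inhibits axon growth, was at 15.4, 13.7, 14.6 and 13.4 FPKM in the controls and at 7.82, 8.29, 7.11 and 6.86 FPKM in the knockout, with little spread within either genotype (log2 fold change -0.84 ± 0.08 SE, adjusted p = 0.000126). Sema4a fell from 1.62 ± 0.35 to 0.637 ± 0.17 FPKM (log2 fold change -0.67, adjusted p = 0.00701), so it was under 1 FPKM in the knockout. Sema4a thus passed the filter on low values through its control level. Sema4f rose from 0.941 ± 0.20 to 2.36 ± 0.42 FPKM (log2 fold change 0.79, adjusted p = 0.00235), and passed the filter on low values through its knockout level. Sema4b rose from 1.70 ± 0.35 to 2.77 ± 0.21 FPKM (log2 fold change 0.49, adjusted p = 0.0127), a call lost with Med23-/- replicates 3 and 4 left out (adjusted p = 0.0633).

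Of the class 6 semaphorins, transmembrane ligands of A-class plexins, Sema6d and Sema6c rose. Sema6d was at 40.1, 39.9, 38.8 and 36.8 FPKM in the controls and at 53.9, 60.5, 47.0 and 44.3 FPKM in the knockout, where it was above Sema5a in every library (log2 fold change 0.38 ± 0.10 SE, adjusted p = 0.017, and 0.0506 without Med23+/+ replicate 4). Sema6c rose from 2.96 ± 0.68 to 5.02 ± 1.2 FPKM (log2 fold change 0.60, adjusted p = 0.0266), but its libraries overlapped and the adjusted p lay between 0.063 and 0.0746 without Med23+/+ replicate 2 or 3 or Med23-/- replicate 1 or 2. Sema6a and Sema6b did not pass, with log2 fold changes of -0.20 and -0.01.

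Sema3a, a repellent for axons and OPCs, did not pass (log2 fold change 0.74 ± 0.25 SE, adjusted p = 0.0535). It was at 1.26, 1.42, 2.24 and 2.26 FPKM in the controls and at 2.61, 2.12, 5.98 and 4.65 FPKM in the knockout. Its higher values were in Med23-/- replicates 3 and 4, which also had the highest neuron marker sums, and a link between them was not tested. The level of Sema3d was 16.8 to 27.2 times that of Sema3a in Med23+/+ and 2.58 to 7.28 times in Med23-/- libraries.

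**Figure D4:**
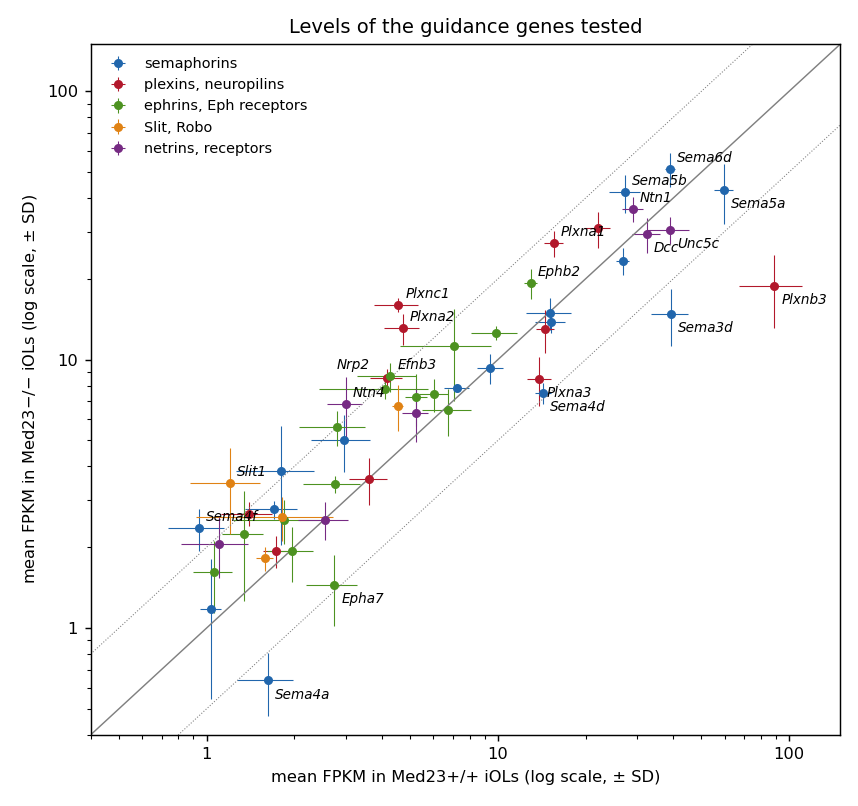
Mean FPKM of the 53 guidance genes tested in Med23+/+ (x axis) and Med23-/- iOLs (y axis), both on log scales with bars of ± SD (n = 4), coloured by family, with a solid line for equal levels and dotted lines for 2-fold differences. Plxnb3, at 88.7 FPKM in Med23+/+ and 18.9 in Med23-/- iOLs, lies far below the line. Plxnc1 and Plxna2 are among the genes above the upper dotted line.

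Ephrins of the B class, which span the membrane, included the 2 ephrins that rose. Efnb3, a myelin-associated inhibitor of axon growth, was at 5.64, 4.06, 3.37 and 3.97 FPKM in the controls and at 9.58, 9.19, 7.16 and 8.72 FPKM in the knockout, 2.03 times as high on average (log2 fold change 0.89 ± 0.14 SE, adjusted p = 0.00134). Efnb2, a marker of arterial endothelium that signals through EphB receptors, was at 3.68, 3.05, 2.18 and 2.26 FPKM in the controls and at 6.25, 5.10, 4.72 and 6.42 FPKM in the knockout (log2 fold change 0.81 ± 0.15 SE, adjusted p = 0.00313). Neither overlapped between genotypes, and for both Med23+/+ replicate 1 was the highest control. Efnb1 did not pass (log2 fold change 0.25), and the 3 lipid-anchored A-class ephrins tested did not pass either, with log2 fold changes of -0.06 to 0.33. Efna2, the most abundant ephrin over the 8 libraries, was at 8.43, 6.86, 5.32 and 6.44 FPKM in the controls and at 7.64, 7.40, 4.80 and 6.10 FPKM in the knockout (adjusted p = 0.823). The share of Efna2 in the summed ephrin level was 31.3% to 33.9% in Med23+/+ and 18.5% to 24.7% in Med23-/- libraries. The summed ephrin level ran from 16.96 to 25.7 and from 25.9 to 31.8 FPKM.

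The Eph receptors summed to 49.7 to 54.3 FPKM in Med23+/+ and to 69.6 to 79.9 FPKM in Med23-/- libraries, without overlap. Ephb2, a receptor of B-class ephrins and the most abundant Eph receptor, was at 12.6, 12.5, 12.8 and 13.9 FPKM in the controls and at 21.4, 19.6, 15.7 and 20.5 FPKM in the knockout (log2 fold change 0.53 ± 0.10 SE, adjusted p = 0.00358). Epha5, a receptor of A-class ephrins, was at 5.91, 5.06, 2.48 and 2.90 FPKM in the controls and at 6.84, 8.23, 7.74 and 8.31 FPKM in the knockout (log2 fold change 0.84 ± 0.21 SE, adjusted p = 0.013, and 0.0712 with Med23-/- replicates 3 and 4 left out). Its control libraries fell into a higher and a lower pair, and the genotypes did not overlap. Epha7, also a receptor of A-class ephrins, fell from 2.74 ± 0.55 to 1.44 ± 0.43 FPKM (log2 fold change -0.62, adjusted p = 0.0184, and 0.051 without Med23+/+ replicate 2). The other 6 Eph receptors tested did not pass and had log2 fold changes of 0.25 to 0.59.

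Slit1, a secreted repellent, was at 1.52, 1.43, 0.868 and 0.982 FPKM in the controls and at 4.72, 4.29, 2.24 and 2.60 FPKM in the knockout, 2.89 times as high on average (log2 fold change 0.99 ± 0.20 SE, adjusted p = 0.00537). The genotypes did not overlap, and within each genotype replicates 1 and 2 had the higher Slit1 values. In the knockout these 2 libraries had the lower neuron marker sums, 189 and 144 FPKM, still above the 91.5 to 131.5 FPKM of the controls. The part of the neuron markers in the Slit1 values was not tested. Robo1, a Slit receptor, was at 4.26, 4.60, 4.73 and 4.57 FPKM in the controls and at 7.02, 5.73, 5.67 and 8.44 FPKM in the knockout (log2 fold change 0.46 ± 0.12 SE, adjusted p = 0.0166, and 0.0549 after quantile normalization). Slit2 and Robo2 did not pass, with log2 fold changes of 0.12 and 0.39.

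Ntn1, the netrin through which Dcc guides axons and OPCs, held 82.7% to 85.3% of the summed netrin level in Med23+/+ and 73.4% to 82.99% in Med23-/- libraries. It was at 31.4, 28.8, 25.8 and 30.2 FPKM in the controls and at 39.8, 39.4, 34.0 and 32.1 FPKM in the knockout (log2 fold change 0.31 ± 0.10 SE, adjusted p = 0.0337). The adjusted p lay between 0.0594 and 0.0918 without Med23+/+ replicate 2, 3 or 4 or Med23-/- replicate 1 or 2. Ntn4, a netrin related to laminin chains of the beta type, was at 3.40, 2.47, 2.91 and 3.23 FPKM in the controls and at 7.38, 5.89, 4.94 and 9.10 FPKM in the knockout, without overlap and 2.27 times as high on average (log2 fold change 0.94 ± 0.16 SE, adjusted p = 0.00224).

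The netrin receptors were led by Unc5c, which mediates repulsion, and Dcc, which mediates attraction. Unc5c was at 34.8, 34.6, 48.3 and 38.1 FPKM in the controls and at 28.2, 29.1, 35.7 and 29.2 FPKM in the knockout, and did not pass (log2 fold change -0.34 ± 0.12 SE, adjusted p = 0.0606, but 0.0336 without Med23-/- replicate 3). Dcc was at 27.1, 34.0, 35.3 and 33.2 FPKM in the controls and at 28.9, 35.1, 28.5 and 24.7 FPKM in the knockout, with overlap (log2 fold change -0.14, adjusted p = 0.393). Unc5b, a receptor at a low level, rose from 1.10 ± 0.28 to 2.06 ± 0.53 FPKM (log2 fold change 0.54, adjusted p = 0.0337), with overlapping libraries and an adjusted p between 0.0517 and 0.0893 without Med23+/+ replicate 2, 3 or 4 or Med23-/- replicate 1, 3 or 4. Unc5a did not pass (log2 fold change 0.22).

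**Figure D5:**
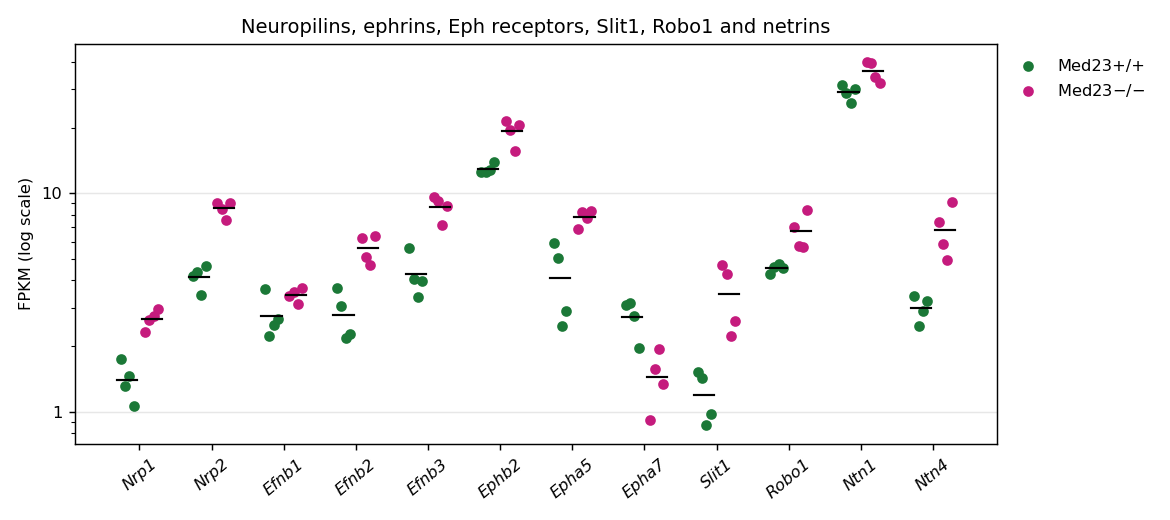
FPKM (y axis, log scale) of the neuropilins, B-class ephrins, 3 Eph receptors, Slit1, Robo1 and 2 netrins in each library, with green points for Med23+/+, pink points for Med23-/- and a black line at each mean. Every gene but Efnb1 has its genotypes apart, with Epha7 lower and the others higher in the knockout.

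Set beside their receptors, ligands did not all move with them. For Sema5a and Plxnb3 both ligand and receptor fell, although the call of Sema5a was lost in 11 of 17 alternative settings. Both rose for Sema6d and Plxna1, for Efnb2 and Efnb3 with Ephb2, and for Slit1 and Robo1. For Plxnc1 the ligand Sema7a had a log2 fold change of 0.11, and for Plxna2 the ligand Sema6a had one of -0.20, neither of which passed while both receptors rose. For Sema4d, which fell, the receptor Plxnb1 had a log2 fold change of -0.17 and did not pass, and Plxnb2 rose. Ntn1 rose, although its call was lost in 5 of 17 alternative settings. Its receptors Dcc and Unc5c had log2 fold changes of -0.14 and -0.34 and did not pass. The receptor Unc5b rose (log2 fold change 0.54), a call lost in 8 of 16 alternative settings, and Unc5a did not pass (0.22). Neo1, a Dcc relative that also binds netrins, was picked after its values were seen and fell (log2 fold change -0.77). Of the receptors of A-class ephrins, Epha5 rose and Epha7 fell, while no A-class ephrin tested passed.

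In all, 27 of the 54 genes did not pass, with log2 fold changes from -0.34 for Unc5c to 0.74 for Sema3a. Sema3c, at a mean of 1.10 FPKM, was the lowest gene tested, and Epha6, at 0.922 FPKM, the highest of the 18 that were not. Ntn5 was listed at 0 in every library. Of the 18, 4 had no overlap between genotypes, 3 of them higher in the knockout and Sema3e lower, against 6.72% higher and 2% lower of the 6101 untested genes above 0 in a library. The 3, named after their values were seen, were Epha6 (0.391 to 1.45 FPKM on average), Efna5 (0.465 to 1.15) and Unc5d (0.364 to 1.03). Unc50, which is no guidance gene, was tested and did not pass (log2 fold change -0.11).

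Downstream of these receptors lie kinases, small GTPases and their regulators. Of 81 further genes of the guidance pathways, 74 were tested, 16 fell and 22 rose, with a median log2 fold change of 0.10. That is 21.6% and 29.7% of those tested, against 14.1% and 15.9% of all genes tested. The list was made from general knowledge with earlier results of these data known, and it holds Fyn, which the study reported as lower. Among the genes that rose, Ablim1 (0.809 to 2.49 FPKM on average) and Cntn2 (0.874 to 1.96) passed the filter through their knockout level. The shares are thus a description only. Of 16 co-receptors and modulators tested, 6 fell and 6 rose, and of 20 semaphorin and plexin effectors, 4 fell and 2 rose. Of 13 ephrin and Eph effectors, 3 fell and 6 rose, of 15 netrin receptor effectors, 3 fell and 5 rose, and of 10 Slit and Robo effectors, 3 rose and the others did not pass.

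The 8 pathway genes with the largest changes included 4 that fell. Inppl1, a lipid phosphatase that binds Eph receptors, fell from 35.6 ± 8.4 to 10.5 ± 1.7 FPKM (log2 fold change -1.66, adjusted p = 0.000124). Pdzrn3, a ubiquitin ligase, fell from 5.65 ± 0.74 to 1.44 ± 0.56 FPKM (log2 fold change -1.47, adjusted p = 0.000277). Rnd2, a protein that binds plexins, was at 298, 256, 383 and 318 FPKM in the controls and at 120, 136, 138 and 92.0 FPKM in the knockout (log2 fold change -1.37, adjusted p = 0.00024). Fyn, a Src-family kinase that binds Dcc and is needed for myelination, was at 412, 398, 444 and 376 FPKM in the controls and at 166, 192, 158 and 170 FPKM in the knockout (log2 fold change -1.25, adjusted p = 2.71e-05). The genotypes were apart for all 4.

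The other 4 rose. Dapk1, a death-associated kinase that signals below Unc5 receptors, rose from 5.83 ± 0.60 to 18.0 ± 2.6 FPKM (log2 fold change 1.47, adjusted p = 3.54e-05). Srgap2, a GTPase-activating protein of the Slit and Robo pathway, rose from 10.1 ± 0.79 to 28.9 ± 4.9 FPKM (log2 fold change 1.42, adjusted p = 4.2e-05). Nck2, an adaptor that binds activated Eph receptors, rose from 4.25 ± 0.63 to 11.8 ± 2.3 FPKM (log2 fold change 1.28, adjusted p = 0.000212). Trim67, a ubiquitin ligase that binds Dcc, rose from 9.62 ± 1.5 to 23.7 ± 1.8 FPKM (log2 fold change 1.23, adjusted p = 6.99e-05).

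An alternative chosen after seeing the data left out Med23-/- replicates 3 and 4, the libraries with the highest neuron marker sums. In it 18 of the guidance genes were higher and 7 lower by adjusted p, against 11% and 11.1% of all genes tested in that fit. Med23-/- replicates 1 and 2, which stayed in, still had sums of 189 and 144 FPKM, above the 91.5 to 131.5 FPKM of the controls. The fit thus does not remove the difference in these markers, whose part was not tested.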

How the data were processed

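RNA-seq was analysed from 8 iOL libraries, 4 Med23+/+ (WT) and 4 Med23-/- (KO), grouped by the labels. The authors used FastQC for read quality, Cutadapt for trimming, Tophat2 (default options, mm10) for alignment and cuffdiff (-b -u) for quantification; tool versions, annotation and use of strand are not given in the sources used here. The table the authors deposited holds FPKM per library for 24346 gene symbols. Its columns of genotype means, fold changes, p-values and q-values were not used, and 0 columns of other samples were present. Read counts were not used, so the depth is unknown and no counting interval is given. The worth of 1 read, relative to Med23+/+ replicate 1, ran from 0.732 to 1.

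Values were transformed to log2(FPKM + 1) and the 12328 genes averaging 1 FPKM or more were fitted with limma 3.58.1 in R 4.3.3 (lmFit, eBayes with a mean-variance trend), with Benjamini-Hochberg adjustment over all of them; the script was tested on simulated data. Calls required an adjusted p under 0.05, with or without a fold change of FPKM + 1 above 2. The study's methods set the same factor on expression level, without the added 1. Single genes were also put to an exact permutation test, two-sided (scipy 1.17.1).

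Named genes are the members past both limits, all others called, the most abundant member of each family, the members on either side of the filter, and the 8 called pathway genes with the largest change. Other members are given by family where they complete it. The members, marker lists and pathway list were chosen with earlier results of these data known. Gene overlaps were read from GENCODE M21 and promoters from RefSeq. Alternatives covered the pseudocount, the filter, scaling, the variance trend, a replicate block, a covariate for replicates 1 and 2 against 3 and 4, and leaving out libraries.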

Additional observations from a re-analysis of the deposited data

Results flagged for a closer look

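Of 58 groups of 4 libraries examined, the 2 genotypes of each of 29 genes, 1 had a library standing apart from the other 3, where chance flags about 1 in 20. Unc5c in Med23-/- replicate 3 was at 35.7 FPKM, above the 28.2, 29.1 and 29.2 FPKM of the other knockout libraries, and its gap to the nearest of them was 0.864 of the range, past Dixon's limit. That library also had the highest neuron marker sum, 256 FPKM. Among the controls Unc5c was highest in Med23+/+ replicate 3, at 48.3 FPKM. The neuron marker sum there was 100.8 FPKM, under the 131.5 and 104.6 FPKM of Med23+/+ replicates 1 and 4. The part of these markers was not tested.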

How the results depend on the processing

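Of the 27 guidance genes called, 18 kept their call under all 17 alternatives in which they were tested, 9 lost it in at least 1, and 0 changed direction. Sema5a lost it in 11 of 17, Unc5b in 8 of 16, Sema6c in 6 of 16 and Ntn1 in 5 of 17, and Robo1, Epha7, Sema6d, Epha5 and Sema4b in 1 each. The count higher by adjusted p was 12 instead of 20 among genes with a mean of 5 FPKM or more, where fewer genes were tested. The count higher past both limits was 8 instead of 2 with a pseudocount of 0.1 FPKM, and 2 to 5 when each library was left out in turn. The count lower past both limits was 3 instead of 2 with that pseudocount, a count for which the share of all genes was not computed. Efna2, not called, had a log2 fold change of -0.15 to 0.061 when each library was left out and of 0.15 without Med23-/- replicates 3 and 4, against -0.06; the cause was not tested. The labels do not say whether replicate numbers pair the samples. Correlations of same-numbered deviations, small and of both signs, cannot decide it (0.130, -0.0960, -0.0260 and 0.159). Deviations of Med23+/+ replicate 1 correlated positively with Med23-/- replicates 1 and 2 and negatively with 3 and 4. For Med23+/+ replicate 4 the signs were the reverse, and for replicates 2 and 3 they were mixed. All pairs lay between -0.179 and 0.162, and a batch shared by replicates was not tested. With the replicate block, 8 genes were lower and 22 higher, and Unc5c passed (adjusted p = 0.0117). With the covariate for replicates 1 and 2 against 3 and 4, 8 were lower and 23 higher. Unc5c also passed with the covariate (0.029) and with median-ratio scaling (0.0487). Without a filter, 7 were lower and 23 higher. The shares of all genes called were not computed for the block, the covariate, the unfiltered fit or the limit of 5 FPKM. The counts in these settings thus cannot be set against all genes and are a description only. FPKM without counts limits what can be said of genes under 1 FPKM.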

Other observations

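Sema3c was at 0.989, 0.935, 1.13 and 1.08 FPKM in Med23+/+ replicates 1 to 4 and at 0.712, 0.574, 1.88 and 1.54 FPKM in Med23-/- replicates 1 to 4, so the knockout libraries lay on both sides of the controls (log2 fold change 0.05, adjusted p = 0.876). The lower knockout values were in replicates 1 and 2 and the higher in replicates 3 and 4, whose neuron marker sums were 256 and 223 FPKM. A link between them was not tested. Draxin, a secreted antagonist that binds Dcc and netrins and was picked after its values were seen, was at 4.23, 3.28, 0.859 and 1.81 FPKM in the controls and at 9.29, 9.76, 4.45 and 3.76 FPKM in the knockout, with overlap (log2 fold change 1.16 ± 0.36 SE, adjusted p = 0.0366). Neo1, the Dcc relative that also binds netrins and was likewise picked after its values were seen, was at 49.1, 48.2, 57.9 and 47.5 FPKM in the controls and at 29.8, 29.4, 30.6 and 27.0 FPKM in the knockout, without overlap (log2 fold change -0.77 ± 0.08 SE, adjusted p = 0.000196).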
